A study of Mus musculus with 14 samples.

Results

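The receptor genes Glp1r and Ptgfr, the channel gene Ano1, and 2 genes for proteins outside the cell membrane, Nrn1 and Sned1, were examined in mouse melanoma tumours. These 5 genes, of 18481 in the table, were chosen by their lower level in tumours treated for 3 or 6 days than in controls. The values of those days against controls therefore describe the choice and are given without a test. Whether each gene was also lower at days 18 and 27 was tested, but against the same control tumours that served the choice, so those tests are not fully independent of it. Only the comparison of day 27 with day 18 uses no tumour that the choice used.

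Female C57BL/6J mice aged 6 to 8 weeks received cells of the mouse melanoma line SMM102 beneath the skin at 2 sites. Once tumours measured 150 to 300 mm3, treated mice were given the BRAF inhibitor PLX4032, also called vemurafenib, by intraperitoneal injection (50 mg/kg, 5 days of each week). There were 2 treated tumours each at days 3, 6 and 18 and 4 at day 27. Controls numbered 2 at day 3 and 2 at day 6, and are untreated by the sample labels but given vehicle by the design text. The 4 tumours of day 27 are the left and right tumours of 2 mice and the table does not tie columns to mice, so p-values that include day 27 are too small, and those of the other days share the same estimate of the spread. The labels of the day 18 tumours give no animal number, so whether they come from different mice is not known. No control was taken at day 18 or 27, so longer treatment and longer growth cannot be told apart. Whole tumours were sequenced, host cells included. In such bulk tissue, fewer cells of a type and less RNA per cell cannot be told apart.

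BRAF starts a chain of kinases that ends in ERK, which turns on growth genes and, through them, its own inhibitors. Glp1r is the receptor for the gut hormone GLP-1, best known from the insulin cells of the pancreas, where it raises cyclic AMP. Ptgfr is the receptor for prostaglandin F2 alpha, a lipid signal that contracts smooth muscle. Ano1, also called TMEM16A, is a chloride channel opened by calcium, known from secretory epithelia and from the pacemaker cells of the gut. Nrn1 (neuritin) is a small protein held on the cell surface by a lipid anchor and known for the outgrowth of nerve cell processes. Sned1 is a glycoprotein of the extracellular matrix with a nidogen-type domain. Nrn1 and Sned1 are thus neither receptors nor channels in the strict sense.

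The 5 genes lie on 5 different chromosomes, so they are not neighbours. Promoters were available from RefSeq (GRCm38.p6) for 4 of the 5 genes, Nrn1 being the exception. Glp1r and Ptgfr, the pair of receptors, differed most in base composition and are shown for that reason, each as a stretch before the first annotated exon, with CG pairs in capitals. Glp1r is at chr17:30901617-30901816 (plus strand) and Ptgfr at chr3:151837631-151837778 (minus strand).
Glp1r: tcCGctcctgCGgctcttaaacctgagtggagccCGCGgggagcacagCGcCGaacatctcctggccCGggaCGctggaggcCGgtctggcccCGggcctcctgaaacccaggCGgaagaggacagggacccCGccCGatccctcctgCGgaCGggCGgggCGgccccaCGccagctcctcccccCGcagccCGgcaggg
Ptgfr: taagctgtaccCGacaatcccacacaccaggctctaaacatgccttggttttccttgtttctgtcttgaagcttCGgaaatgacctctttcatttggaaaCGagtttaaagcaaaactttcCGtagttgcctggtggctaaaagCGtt
In the 250 bases before the start, the Glp1r promoter held 26 CG pairs and 73.2% G and C, and that of Ptgfr held 10 CG pairs and 52.0% G and C. Ano1 had 16 CG pairs and 72.0% G and C, and Sned1 had 23 and 64.0%, against a median over all mouse promoters of 6 CG pairs and 52.4%. The Ano1 window, which begins at chr7:144738823 (minus strand), lies inside the gene as annotated, chr7:144588549-144751974. It thus precedes an internal RefSeq start, and the outermost start of Ano1 was not examined. Neither strand of the 4 windows held the letters of 5 motifs that were searched. Among all 32851 promoters, AP-1 (TGANTCA) was present in 6.75%, ETS (CCGGAA) in 12.0%, the cyclic AMP element (TGACGTCA) in 1.55%, TEAD (GGAATG) in 12.6% and the E-box (CACGTG) in 6.02%.

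Levels below are the authors' expression signal, a TPM-like value per transcript length. Log2 changes are differences in log2(signal + 1) against the mean of both control groups, which understates the change of low genes. Tests are limma's, 2-sided, adjusted over all 15841 genes tested, with a threshold of 0.05. At day 18, 3 of the 5 genes were called lower (Nrn1, Ptgfr and Sned1), where 2.50% of all genes tested were called lower. At day 27, 4 of the 5 were called lower (all but Ano1), against 3.09% of all genes. Nrn1, Ptgfr and Sned1 were thus called at both late days, Glp1r at day 27 alone and Ano1 at neither, although the levels of Glp1r and Ano1 were below the control mean at both.

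**Figure D1:**
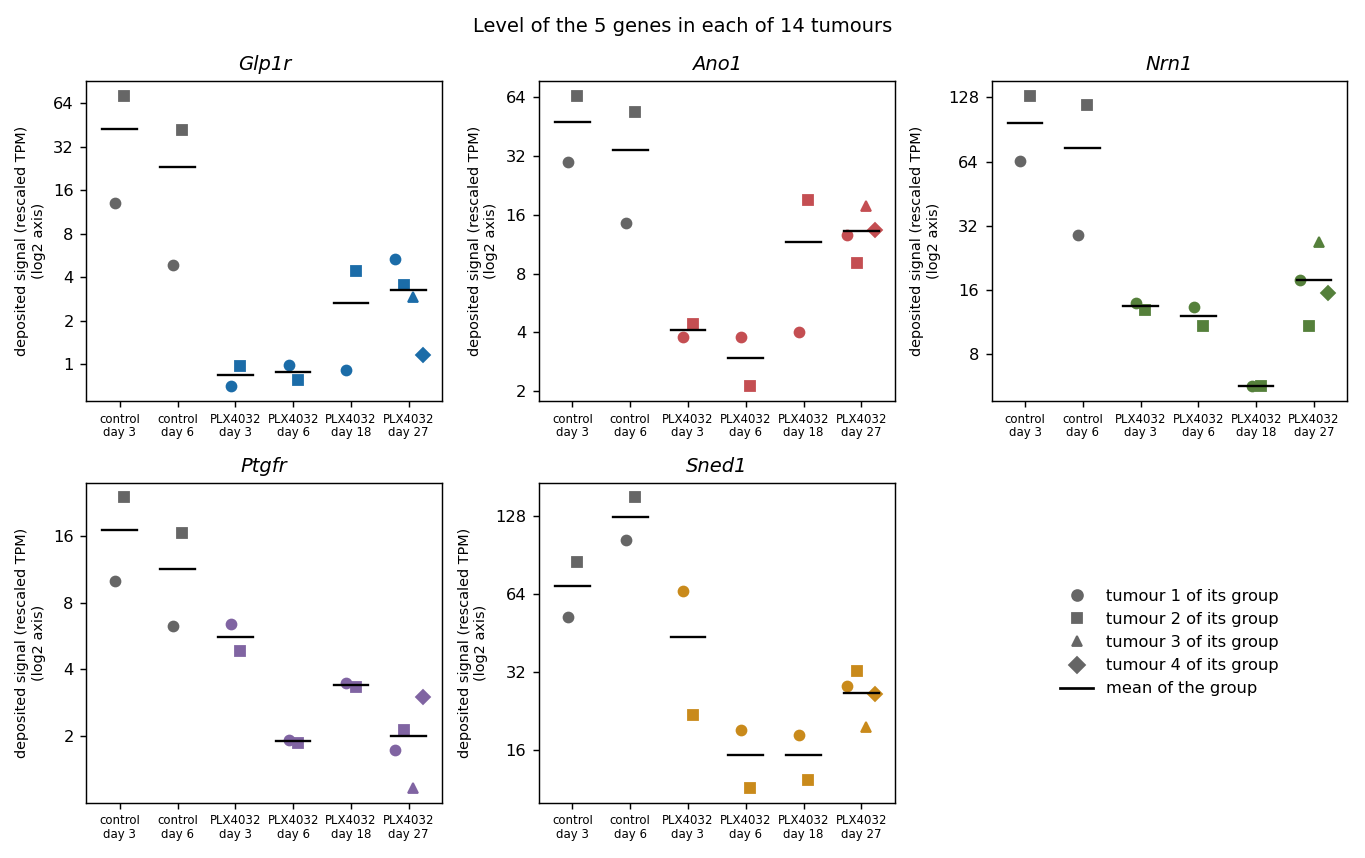
Expression signal of Glp1r, Ano1, Nrn1, Ptgfr and Sned1 (log2 axis) in each of the 14 tumours by group, with lines at the group means. Glp1r in the treated tumours lies between 0.705 and 5.39, against 4.87 to 72.1 in the controls, while the Sned1 value of 65.6 in tumour 1 of day 3 lies within the control range.

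Glp1r (chr17:30901817-30940791, plus strand, GRCm38, protein coding) had, for its mean, the widest spread among the controls. Its signal was 13.1 and 72.1 in the day 3 controls and 4.87 and 41.7 in the day 6 controls, a mean of 33.0 ± 30.5 (SD, n = 4). The treated tumours had 0.705 and 0.976 at day 3, 0.983 and 0.785 at day 6, 0.909 and 4.40 at day 18, and 5.39, 3.55, 2.93 and 1.16 at day 27. All tumours of days 3, 6 and 18 were below the lowest control, and 3 of 4 were at day 27, where the remaining tumour, at 5.39, passed the control at 4.87. The group means were 2.55%, 2.68%, 8.05% and 9.89% of the control mean at days 3, 6, 18 and 27. As a description, the log2 change was -3.62 (SE 0.81) at day 3 and -3.58 (SE 0.81) at day 6, the lowest of all 15841 genes on that day. It was -2.81 (SE 0.81, adjusted p = 0.059) at day 18, which missed the threshold, and -2.51 (SE 0.67, adjusted p = 0.049) at day 27, just past it. Of the 4 calls at day 27 it was the nearest to the threshold: it was lost in 19 of 25 alternatives, among them each removal of a day 27 tumour (adjusted p from 0.077 to 0.12), of tumour 2 of the day 3 controls (0.15) and of tumour 2 of the day 6 controls (0.11). An exact 2-sided permutation test on day 27 against the controls gave p = 0.0571, where the smallest it can give is 0.0286. The day 18 value was past the threshold in 6 of 22 alternatives, among them those without tumour 1 of the day 3 controls (adjusted p = 0.028) or tumour 1 of the day 6 controls (0.010).

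Ptgfr (chr3:151796502-151837630, minus strand, protein coding) differed from Glp1r in its time course. Its signal was 9.98 and 23.9 in the day 3 controls and 6.25 and 16.5 in the day 6 controls, a mean of 14.2 ± 7.76 (SD, n = 4). It was 6.42 and 4.83 at day 3, 1.93 and 1.86 at day 6, 3.49 and 3.32 at day 18, and 1.74, 2.14, 1.17 and 3.01 at day 27. At day 3, 1 tumour overlapped the controls, and from day 6 on every treated tumour was below every control. The means were 39.7%, 13.4%, 24.0% and 14.2% of the control mean at the 4 days. The log2 change at day 3 was -1.05 (SE 0.39), which placed Ptgfr at rank 661 from the lowest, and at day 6 it was -2.24 (SE 0.39), at rank 10. It stayed lower at day 18 (log2 change -1.63, SE 0.39, adjusted p = 0.030) and at day 27 (-2.22, SE 0.31, adjusted p = 0.0040). The day 27 call held in all 25 alternatives run, with a highest adjusted p of 0.048, and the exact permutation p was 0.0286, the smallest possible. The day 18 call was lost in 8 of 22 alternatives, among them those without tumour 2 of the day 3 controls (adjusted p = 0.077), without tumour 2 of the day 6 controls (0.060) and without tumour 1 or tumour 2 of day 18 (0.16 and 0.13).

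Ano1 (chr7:144588549-144751974, minus strand, protein coding) had, as a percentage of the control mean, the highest late levels of the 5 genes. Its signal was 30.0 and 65.4 in the day 3 controls and 14.5 and 53.9 in the day 6 controls, a mean of 41.0 ± 23.0 (SD, n = 4). It was 3.80 and 4.40 at day 3, 3.77 and 2.11 at day 6, 4.02 and 19.1 at day 18, and 12.7, 9.02, 17.8 and 13.3 at day 27. Both early groups were below every control, whereas 1 of 2 tumours at day 18 and 1 of 4 at day 27 overlapped them. The means were 10.0%, 7.18%, 28.2% and 32.3% of the control mean. The log2 change was -2.84 (SE 0.59) at day 3 and -3.24 (SE 0.59) at day 6, and then -1.86 (SE 0.59, adjusted p = 0.075) at day 18 and -1.39 (SE 0.48, adjusted p = 0.12) at day 27, both short of the threshold. At day 18 the log2 change of Ptgfr was nearer to 0 than that of Ano1. The exact permutation p at day 27 was 0.0571 for Ano1. Tumour 1 of the day 6 controls, the lowest control for Glp1r, Ano1, Nrn1 and Ptgfr, weighed on both late values of Ano1. Without it the adjusted p was 0.022 at day 18 and 0.038 at day 27. Ano1 was past the threshold in 4 of 22 alternatives at day 18 and in 3 of 25 at day 27. Without tumour 2 of day 18, the one at 19.1, the day 18 change was -2.86 (adjusted p = 0.045).

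Nrn1 (chr13:36725361-36735131, minus strand, protein coding) was lowest at day 18. Its signal was 64.1 and 130.6 in the day 3 controls and 28.9 and 118.5 in the day 6 controls, a mean of 85.5 ± 47.5 (SD, n = 4). It was 13.9 and 12.9 at day 3, 13.3 and 10.8 at day 6, 5.64 and 5.63 at day 18, and 17.8, 10.8, 26.9 and 15.4 at day 27. Every treated tumour was below every control, by the least margin at day 27, where the highest tumour had 26.9 against 28.9 in the lowest control. The means were 15.7%, 14.1%, 6.59% and 20.7% of the control mean. The log2 change was -2.37 (SE 0.49) at day 3 and -2.52 (SE 0.49) at day 6. It remained at -3.49 at day 18 (SE 0.49, adjusted p = 0.0022) and -2.06 at day 27 (SE 0.40, adjusted p = 0.014), with an exact permutation p of 0.0286 for the latter. The day 27 call was lost in 5 of 25 alternatives: without tumour 2 of the day 3 controls (adjusted p = 0.055), against the day 6 controls alone (0.12) and in the 3 pairings of day 27 tumours. The day 18 call was lost in 1 of 22, with the compared groups fitted alone (0.074). Nrn1 overlaps the gene Fars2 on the opposite strand, and the sources used here do not say whether strand was used, so reads from the overlap cannot be assigned with certainty.

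Sned1 (chr1:93235841-93301065, plus strand, protein coding) was the gene with the least agreement between the tumours of day 3. Its signal was 52.2 and 85.0 in the day 3 controls and 103.2 and 150.9 in the day 6 controls, a mean of 97.8 ± 41.2 (SD, n = 4). It was 65.6 and 21.9 at day 3, 19.1 and 11.4 at day 6, 18.3 and 12.3 at day 18, and 28.2, 32.2, 19.6 and 26.4 at day 27. Tumour 1 of day 3 lay inside the control range, and all other treated tumours were below every control. The means were 44.7%, 15.6%, 15.7% and 27.2% of the control mean. The log2 change was -1.24 (SE 0.40) at day 3, or -2.01 without tumour 1 of that day and -0.47 without tumour 2. It was -2.54 (SE 0.40) at day 6, -2.52 at day 18 (SE 0.40, adjusted p = 0.0046) and -1.76 at day 27 (SE 0.33, adjusted p = 0.012), with an exact permutation p of 0.0286 at day 27. The day 18 call was lost in 1 of 22 alternatives, without tumour 2 of day 18 (adjusted p = 0.055), and the day 27 call in 4 of 25, against the day 3 controls alone (0.087) and in the 3 pairings. The end of Sned1 overlaps Mterf4 on the opposite strand, and the limit given for Nrn1 applies here as well.

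Every tumour was below every control for 4 of the 5 genes at day 18 and for 3 at day 27. Among all genes tested, the same held for 13.5% and 6.43%. The 3 pairings of the day 27 tumours, each averaged to 2 values to stand for 2 mice, left 1 of the 4 day 27 calls, that of Ptgfr (adjusted p from 0.040 to 0.048). Nrn1 then had an adjusted p of 0.093 to 0.11 and Sned1 of 0.094 to 0.11.

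**Figure D2:**
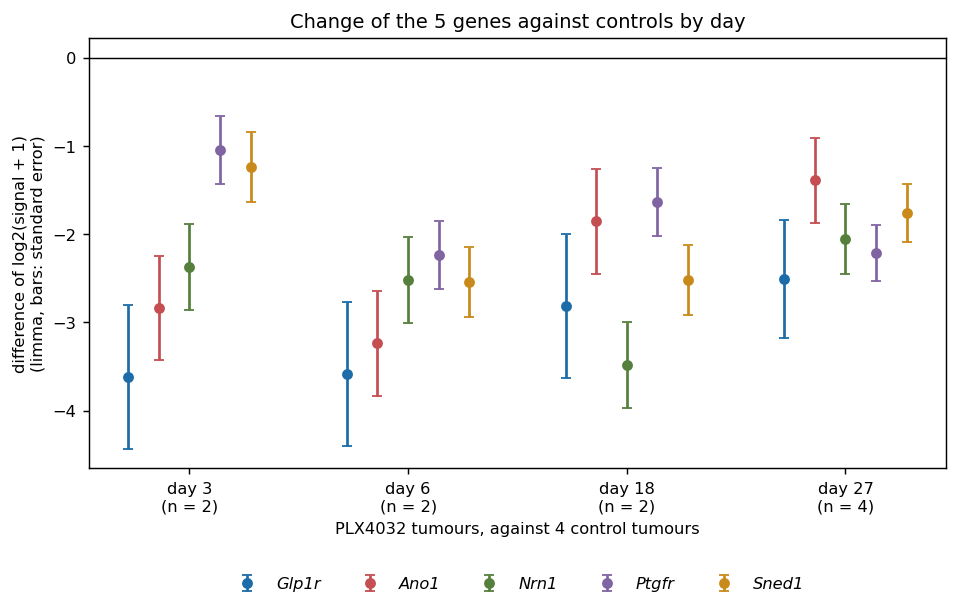
Log2 change of each gene against the mean of both control groups at days 3, 6, 18 and 27, with bars of 1 standard error from the fit over all genes. At day 18 Nrn1 has the lowest value, -3.49, and at day 27 Ano1 lies nearest to 0, at -1.39.

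Day 27 was compared with day 18 to ask whether the genes differed between the late days. None of the 5 passed the test, where 10.0% of all genes did. Nrn1 came nearest, with 17.8, 10.8, 26.9 and 15.4 at day 27 above 5.64 and 5.63 at day 18 (log2 change 1.43, SE 0.49, adjusted p = 0.089). Sned1 was also higher in all day 27 tumours (0.76, SE 0.40, adjusted p = 0.23), an order that 17.3% of all genes showed. Ptgfr was lower in all of them (-0.58, SE 0.39, adjusted p = 0.34), an order seen in 24.4% of all genes. Glp1r (0.30, SE 0.81, adjusted p = 0.84) and Ano1 (0.47, SE 0.59, adjusted p = 0.64) overlapped between the late days. A test that misses the threshold does not show that the levels were alike.

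The controls themselves varied. Tumour 2 of the day 3 controls was the highest for Glp1r, Ano1, Nrn1 and Ptgfr, and tumour 1 of the day 6 controls the lowest, whereas for Sned1 both day 6 controls were above both day 3 controls, an order that 16.8% of all genes showed. Control day 6 against control day 3 gave log2 changes of -1.02 for Glp1r, -0.63 for Ano1, -0.63 for Nrn1, -0.55 for Ptgfr and 0.90 for Sned1, with adjusted p from 0.87 to 0.94. Over all genes this comparison had no limma call (0%), with 886 genes at an unadjusted p under 0.05.

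Y-linked genes gave a measure of transcripts that a female host cannot supply. The summed signal of Ddx3y, Kdm5d and Uty was 30.7 to 44.7 in the controls, 20.3 to 22.8 at day 3, 14.3 to 25.0 at day 6, 22.5 and 42.2 at day 18, and 22.6 to 46.8 at day 27. Of the 3, 1 was called lower at day 3, where 20.8% of all genes were, and none at the other days. Relative to this sum, Glp1r was at 4.87%, 5.80%, 8.92% and 13.6% of the mean control ratio at days 3, 6, 18 and 27. The same ratio was 18.4%, 14.3%, 30.3% and 39.6% for Ano1, and 28.7%, 29.6%, 8.85% and 26.1% for Nrn1. It was 71.6%, 28.5%, 32.2% and 15.6% for Ptgfr, and 76.4%, 30.2%, 21.4% and 30.7% for Sned1. The mean ratio of each gene was thus below that of the controls at each day, and Ptgfr and Sned1 at day 3 were the nearest to it. Single tumours overlapped the controls. Both Ptgfr ratios at day 3 (0.238 and 0.282) lay within the control range of 0.204 to 0.585. The Sned1 ratio in tumour 1 of day 3 was 111% of the mean control ratio. At day 27, Ano1 in tumours 1 and 3 (0.561 and 0.610) and Glp1r in tumour 1 (0.238) passed their lowest control ratios (0.474 and 0.158).

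**Figure D3:**
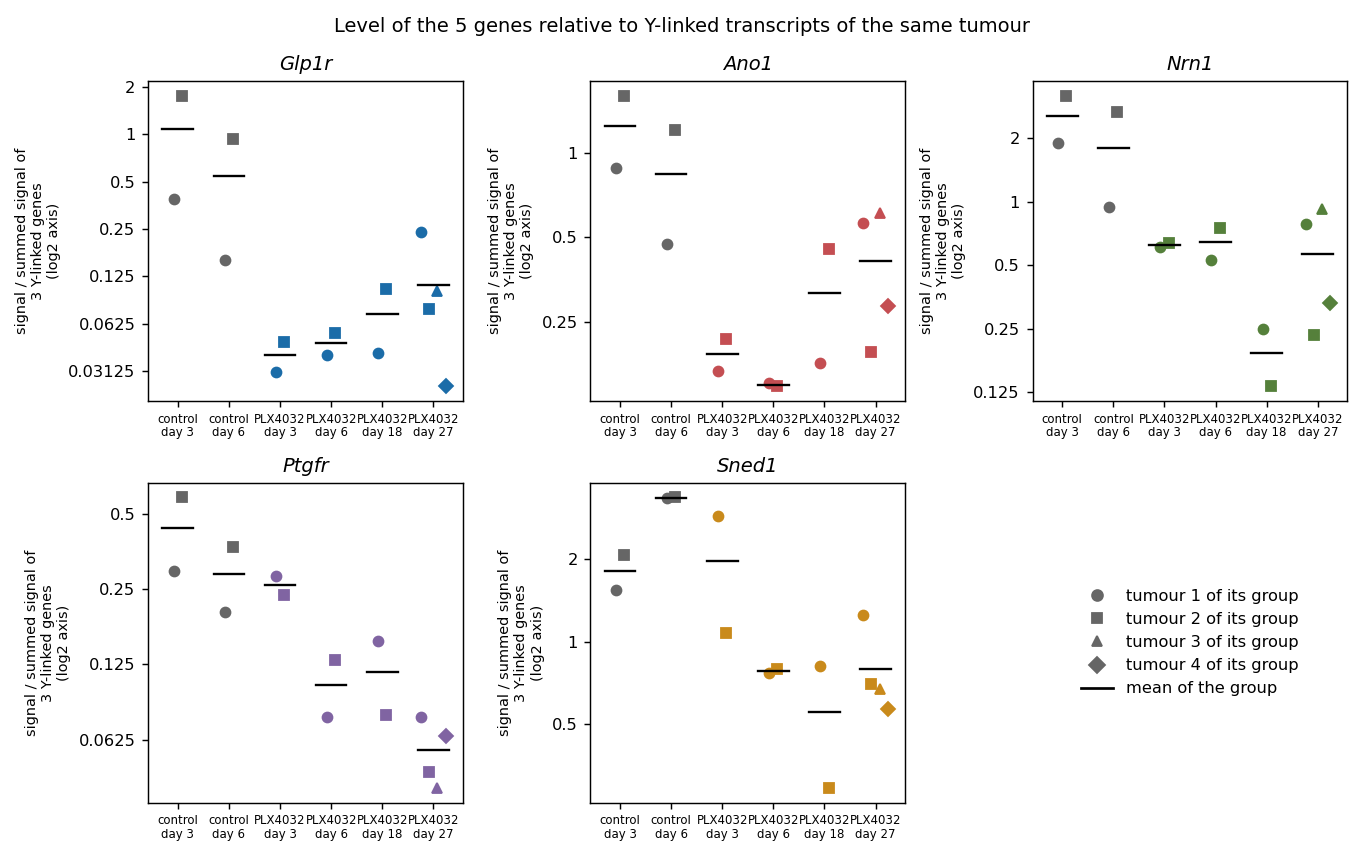
Signal of each gene divided by the summed signal of 3 Y-linked genes in the same tumour (log2 axis), by group, with lines at the group means. The mean ratio of Glp1r at day 3 is 4.87% of the control mean, and that of Sned1 is 76.4%.

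Markers of other cell types moved with the groups. The summed signal of 8 leukocyte markers was 185 to 525 in the controls, 1869 to 2654 at day 3, 740 to 1298 at day 6, 535 to 814 at day 18 and 234 to 454 at day 27. Of these 8, 7 were called higher at day 3, 4 at day 6 and none at days 18 and 27. Over all genes, 24.9%, 4.49%, 5.42% and 3.58% were called higher at days 3, 6, 18 and 27. The shares called lower were 20.8%, 1.43%, 2.50% and 3.09%. Endothelial markers (5 genes) summed to 60.1 to 144 in the controls and to 165 to 240 at day 3, where all 5 were called higher, and to 103 to 180 over the later days. Of these 5, 1 was called higher at day 18, 1 at day 27 and none at day 6. Fibroblast and pericyte markers (6 genes) summed to 825 to 1067 in the controls, 1468 to 1909 at day 3, 883 to 1192 at day 6, 1668 to 1898 at day 18 and 649 to 821 at day 27. The calls among these 6 were 4 higher and 1 lower at day 3, 2 lower at day 6, 2 higher at day 18 and 2 lower at day 27.

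Adipocyte markers (4 genes) summed to 1.59 to 34.5 in the controls, 18.4 to 56.8 at day 3, 15.5 to 17.3 at day 6, 1782 to 1970 at day 18 and 0.237 to 1.52 at day 27. Of these 4, 1 was called higher at day 3, all 4 at day 18 and none at days 6 and 27. Skeletal muscle markers (5 genes) summed to 22.5 to 202 in the controls, 512 to 614 at day 3, 212 to 328 at day 6, 26.1 and 1307 at day 18 and 5.43 to 16.8 at day 27. Of these 5, 1 was called higher at day 3, 1 lower at day 27 and none at days 6 and 18. Smooth muscle markers (3 genes), of a tissue that responds through Ptgfr, summed to 34.4 to 152 in the controls, 390 to 563 at day 3, 234 to 273 at day 6, 240 to 359 at day 18 and 94.7 to 182 at day 27. Acta2 made up most of this sum, with a mean of 134 at day 27 against 74.0 in the controls. Des and Myh11 were lower there, with 1.69 against 23.7 and 0.566 against 0.755. Of these 3 genes, 2 were called higher at day 3 and at day 18, and none was called at days 6 and 27. Kit marks the pacemaker cells that carry Ano1 and also mast cells, and with the mast cell proteases Cpa3 and Mcpt4 it summed to 70.1 to 213 in the controls, 246 to 391 at day 3, 91.3 to 123 at day 6, 69.6 to 91.3 at day 18 and 6.36 to 17.3 at day 27. Among these 3 genes, 2 were called higher at day 3 and none at days 6 and 18. Cpa3 and Mcpt4 were called lower at day 27, with means of 1.96 and 3.20 against 40.3 and 72.5 in the controls. Kit was not called there, with 5.64 against 6.48. The 1 keratinocyte marker in the table, Krt10, had 6.36 to 21.2 in the controls and 3.17 to 8.38 in the treated tumours.

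Among 7 marker genes of pigment cells, Mitf, Pmel and Sox10 were the 3 in the table. Of these, 2 were called higher at day 3 and 1 at day 27, beside 24.9% and 3.58% of all genes. Mitf had a mean of 3.56 in the controls and 8.46, 2.84, 2.70 and 2.02 at days 3, 6, 18 and 27. Pmel had 0.606 in the controls and at most 1.05 in any treated tumour. Sox10 had 0.076 in the controls and 0.341, 0.076, 1.14 and 1.46 at the 4 days. The part of these cell types in the levels of the 5 genes was not tested.

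Genes on the same pathways were read from 7 lists of 110 genes, put together with earlier results of these data known. For reading their counts, 20.8% of all genes were called lower and 24.9% higher at day 3, and 1.43% lower and 4.49% higher at day 6. The shares called higher at days 18 and 27 were 5.42% and 3.58%. The median log2 change over the 5 genes was -2.37, -2.54, -2.52 and -2.06 at the 4 days, beside 0.02, 0.01, 0.07 and 0.01 over all genes. The medians of the 5 genes at days 3 and 6 follow from the choice, and those at days 18 and 27 share its control tumours.

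Around Glp1r, 14 relatives and partners in the class B receptor and incretin pathway were tested. None was called lower at days 3, 6 or 18, 8 were called higher at day 3, and the medians were 0.87, 0.19, 0.52 and -0.03 at the 4 days. Day 3 depended on the scaling: quantile normalisation gave 2 lower and 5 higher (median 0.52), and median-of-ratios rescaling 1 lower and 8 higher. The median at day 27 was 0.01 under quantile normalisation. Dpp4, the enzyme that inactivates GLP-1, rose at day 3 (log2 change 2.56, SE 0.36, adjusted p = 4.1e-04), from a control mean of 1.14 to 11.2, and was called higher at days 6 and 18 too. Adcyap1r1 and Pth1r, receptors for PACAP and parathyroid hormone, were called higher at day 18. Ramp3, a partner protein that changes which hormone some of these receptors bind, was the sole call at day 27. It fell there from a control mean of 27.7 to 3.55 (log2 change -2.32, SE 0.45, adjusted p = 0.014).

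Around Ptgfr, 21 genes of prostanoid synthesis, transport and reception were tested. At day 3, 3 were called lower and 11 higher, at day 6 only Tbxa2r, the thromboxane receptor, was called, and it was higher (0.71, SE 0.18, adjusted p = 0.048), and at day 18, 6 were higher and none lower. At day 27, 3 were called lower and none higher: Slco2a1 and Abcc4, which carry prostaglandins across the membrane (-0.64, adjusted p = 0.040, and -0.58, adjusted p = 0.040), and Ptger1, a receptor for prostaglandin E2 (-0.54, adjusted p = 0.023). Ptges, an enzyme that makes prostaglandin E2, fell at day 3 (-1.28, SE 0.36, adjusted p = 0.015) and had -1.29, -0.96 and -1.07 at the later days, each short of the threshold. The cyclooxygenases Ptgs1 and Ptgs2 were called at none of the 4 days. The list's medians were 0.56, 0.08, 0.39 and -0.23. Under quantile normalisation day 3 had 6 lower and 9 higher (median 0.17), day 6 had 1 lower and 0 higher (median -0.02), and day 18 had 1 lower and 6 higher.

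Around Ano1, the other 5 anoctamins tested showed 2 calls lower at day 3 (Ano3, -0.58, and Ano8, -0.88), 1 at day 18 (Ano6, -0.49, SE 0.13, adjusted p = 0.048) and none at days 6 and 27. None was called higher against the controls, and the medians were -0.26, -0.35, -0.33 and -0.03. Of 17 other chloride channel genes, 2 were lower and 4 higher at day 3, none was called at day 6, and Clcn2 alone was lower at day 18 (-0.70, SE 0.16, adjusted p = 0.023). At day 27, Lrrc8d, a subunit of the volume-regulated channel (-0.72, adjusted p = 0.0057), and Ttyh3 (-0.67, adjusted p = 0.025) were lower, while Cftr, the cystic fibrosis channel (0.70, adjusted p = 0.029), and Clca2 (1.25, adjusted p = 0.011) were higher.

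Around Nrn1, 8 genes were tested: its relative Nrn1l, the synaptic and activity-regulated genes Bdnf, Nptx1, Nptxr, Arc and Homer1, and the receptors Ntrk2 and Insr. Nptx1 and Nptxr, a secreted pentraxin of the synapse and its membrane-bound relative, were lower at day 3 (-4.31 and -2.24) and at day 6 (-3.52, SE 0.53, and -1.47, SE 0.30, adjusted p = 0.034 each). Nptxr stayed lower at day 18 (-1.35, SE 0.30, adjusted p = 0.023) and day 27 (-1.23, SE 0.24, adjusted p = 0.015), from a control mean of 75.2 to 27.4 and 30.4. Nptx1 had a control mean of 101 and means of 48.0 and 50.9 at the late days, which did not pass the test (adjusted p = 0.26 and 0.31). Bdnf, a nerve growth factor, was lower at day 3 alone (-1.41, adjusted p = 0.0038), and its receptor Ntrk2 was higher at days 3 and 18. The level of Ntrk2 was low, with a mean of 0.145 in the controls and 0.719 at day 3. Under quantile normalisation this list had 3 lower and 0 higher at day 3, so the day 3 call of Ntrk2 was lost.

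Around Sned1, 11 genes with the same domain or of the basement membrane were tested. At days 3, 6, 18 and 27, 4, 1, 3 and 2 were called lower and 3, 0, 2 and 4 higher. Lama5, a laminin chain, was lower at every day: from a control mean of 45.7 it was at 10.8, 4.51, 5.79 and 3.48 (log2 change -1.76, -2.87, -2.61 and -3.29, adjusted p = 0.024, 0.034, 0.020 and 0.0037). Nid2, which like Sned1 has a nidogen domain, was higher at days 3, 18 and 27, with 1.20 (SE 0.14, adjusted p = 0.0021) at day 27. The collagens Col4a1 (0.93, adjusted p = 0.011) and Col4a2 (0.82, adjusted p = 0.017) and Nid1 (0.38, adjusted p = 0.049) were higher at day 27.

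Of 14 genes known to follow ERK, 12 were called lower at day 3, 1 at day 6 (Etv4), 1 at day 18 (Etv1) and none at day 27, with medians of -0.83, -0.50, -0.38 and 0.02. Etv4 fell from 95.0 in the controls to 17.4 at day 3 (-2.38, SE 0.24, adjusted p = 6.2e-05), had 43.9 at day 6 (-1.04, SE 0.24, adjusted p = 0.036), and was at 69.2 and 103 at the late days, not called. Dusp6, an ERK phosphatase, had 98.1 at day 3 against 140 in the controls (-0.49, adjusted p = 0.029), and 140, 152 and 177 at days 6, 18 and 27. The median of the ERK list was -0.83 at day 3 and 0.02 at day 27, and that of the 5 genes -2.37 and -2.06. The 5 genes were chosen by their low early levels, and the difference between the 2 medians was not tested.

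**Figure D4:**
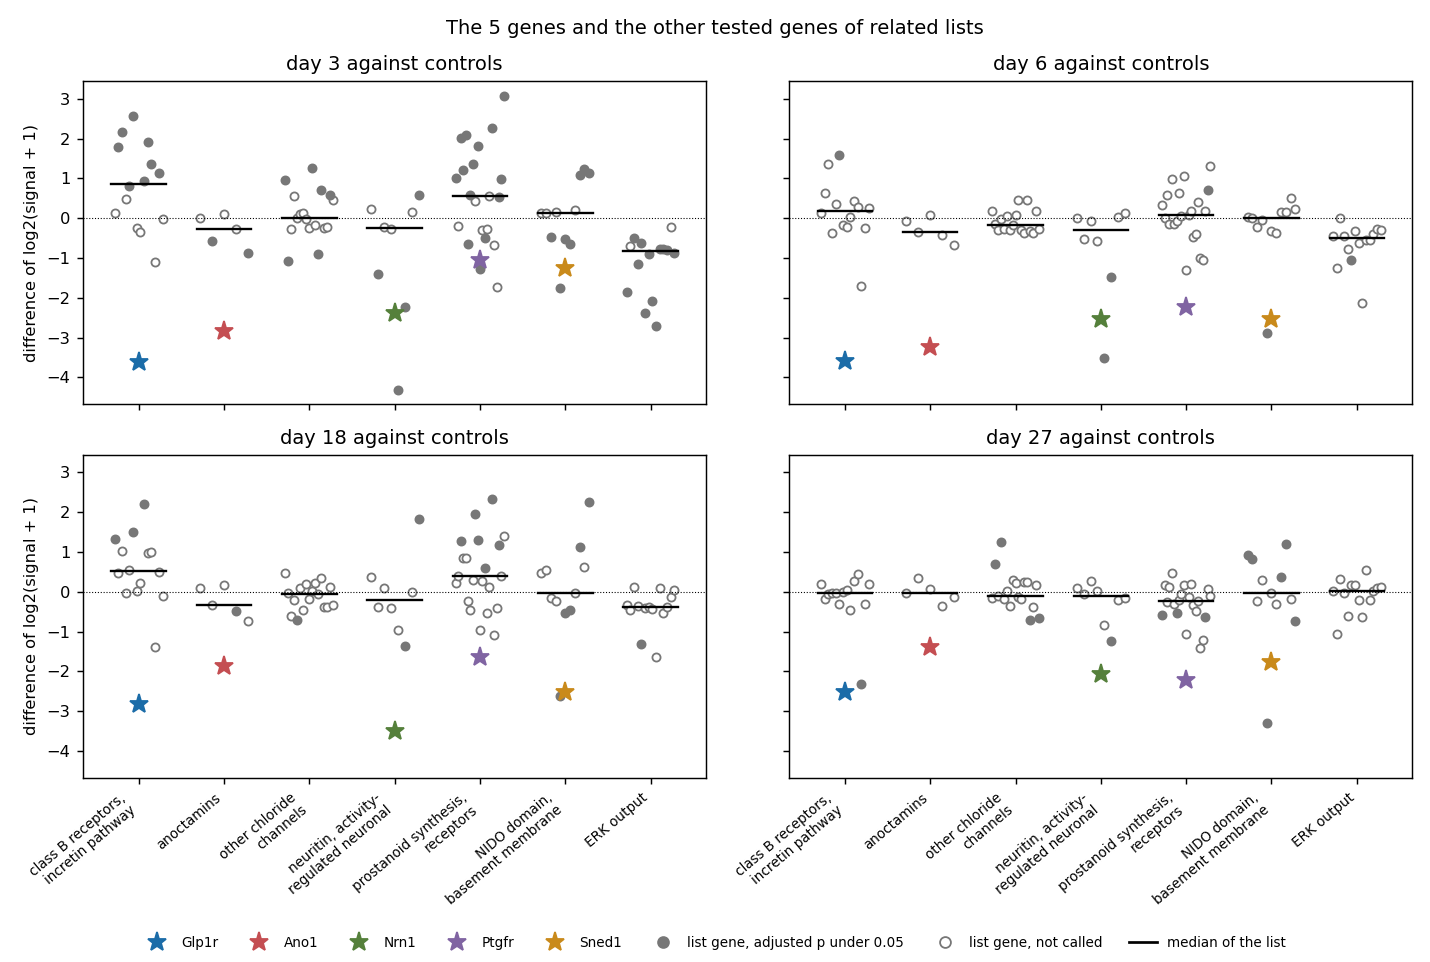
Log2 change against both control groups at days 3, 6, 18 and 27 for the 5 genes and for each list of related genes, with stars for the 5 genes, circles for list genes (filled where the adjusted p is under 0.05) and lines at the list medians. The ERK list has a median of -0.83 at day 3 and 0.02 at day 27, and the 5 genes, chosen by their low early levels, have -2.37 and -2.06.

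Neighbouring genes were read to see whether the lower levels reached beyond the 5 genes. The 20 nearest tested protein-coding genes were taken, 2 on each side of each gene. At day 3, 5 were called lower and 9 higher, beside 20.8% and 24.9% of all genes. Day 6 had 1 lower and 2 higher, beside 1.43% and 4.49%. Day 18 had 0 lower and 2 higher, beside 2.50% and 5.42%. Day 27 had 3 lower and 0 higher, beside 3.09% and 3.58%. The median log2 changes of the 20 neighbours were 0.18, 0.01, 0.12 and 0.01. Beside Ano1, Ccnd1 (cyclin D1, also on the ERK list) had a control mean of 478 and fell at day 3 (-1.84, adjusted p = 5.9e-05), with 0.03 (adjusted p = 0.94) at day 27, and Ppfia1 and Fadd had -0.08 and -0.01 at day 27. Mterf4, which overlaps Sned1, was lower at day 6 (-0.76, adjusted p = 0.047) and day 27 (-0.80, adjusted p = 0.015), and Fars2, which overlaps Nrn1, had -0.57 at day 27 (adjusted p = 0.064). The others called lower at day 27 were F13a1, next to Nrn1 (-1.51, adjusted p = 0.033), and Tpcn2, next to Ano1 (-0.52, adjusted p = 0.027).

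The genes most like each of the 5 over the 14 tumours were ranked among 11575 genes by Pearson's r of log2(signal + 1), as a description, since all points share the same tumours. Glp1r was closest to Emp2, a membrane protein (r = 0.961), to Ptges (0.948) and to Avpi1 (0.945). Emp2 had a mean of 78.7 in the controls and 17.4, 25.8, 22.8 and 29.1 at the 4 treated days. Ano1 was closest to Cav2, a caveolin (r = 0.956), to the integrin chain Itga6 (0.936) and to Sema6d (0.936), and Itga6 went from 67.1 in the controls to 26.6, 31.5, 45.4 and 48.5. Nrn1 was closest to the semaphorin Sema5a (r = 0.952), to the transcription factor Sox5 (0.949) and to Tspan11 (0.940). Sema5a, like Nrn1, had its lowest mean, 9.04, at day 18, against 37.9 in the controls and 20.6 at day 27. Ptgfr was closest to Ramp3 (r = 0.930), to the collagen Col27a1 (0.927) and to Aox3 (0.919). Sned1 was closest to the homeobox gene Meis1 (r = 0.926), to Sfxn3 (0.925) and to Dnm1 (0.907), whose changes were smaller: Dnm1 went from 219 in the controls to 148, 129, 140 and 145.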

How the data were processed

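RNA from 14 whole frozen tumours was sequenced from TruSeq RNA libraries after Trizol extraction, per the labels' protocols. The signal the authors deposited is 1 value per gene symbol and tumour. Column totals between 879385 and 1084401 show a TPM that was rescaled, by a step the sources used here do not give. Kallisto, sleuth and mm10 are named in the submitters' processing notes, without versions. Without counts the depth is unknown.

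The log2(signal + 1) values of 15841 genes (signal of 1 or more in 2 or more tumours) entered 1 limma fit (version 3.58.1, R 4.3.3) with a mean for each of 6 groups, a variance trend and 8 residual degrees of freedom. Tests were 2-sided, and p-values were adjusted over all these genes by the Benjamini-Hochberg method, with a threshold of 0.05. Treated days were set against the average of the control groups. Column names give the group and not the animal, so tumour numbers are only names, and the spread behind each p-value is that between these samples, which may be partly technical. A day 6 control and a day 3 PLX4032 tumour carry 1 animal number, possibly of 1 mouse. No columns were identical (correlation within groups 0.962 to 0.990).

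The 5 genes and all lists were chosen with earlier results of these data known. Named besides them are, per gene, the 3 with the highest correlation among genes with a mean of 2 or more, and list members described by count. Neighbours were chosen after the data were seen. Symbols and coordinates follow GENCODE M21 on GRCm38, the assembly of mm10. Alternatives covered pseudocounts, filters, scalings, weights, each control group alone, Y-linked scaling, averaged day 27 tumours and each tumour left out.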

Additional observations from a re-analysis of the deposited data

Results flagged for a closer look

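Against the shared controls, 17 of 90 tested genes of the related lists (18.9%, beside 10.0% of all genes) had changes that differed between day 18 and day 27, by limma's direct test of day 27 against day 18 adjusted over all genes. At day 27, 11 of the 17 were lower (64.7%), beside 68.3% of such calls over all genes. Under quantile normalisation 10 list genes were lower and 9 higher, and 40.9% of the calls over all genes were lower. Among hormone receptors and the incretin pathway these were Adcyap1r1 (log2 change -1.12, adjusted p = 0.0061), Pth1r (-2.65, adjusted p = 4.6e-04) and Dpp4 (-1.82, adjusted p = 0.012). Prostanoid genes gave the longest set: the prostacyclin synthase Ptgis (-2.58, from 7.02 to 0.342), Cbr1 (-1.54), Slco2a1 (-1.81), Abcc4 (-0.81), and the prostaglandin E2 receptors Ptger3 (-2.00) and Ptger4 (-1.13), with adjusted p from 2.9e-04 to 0.038. Ntrk2 (-1.98, adjusted p = 2.9e-05) and the matrix gene Svep1 (-2.98, adjusted p = 2.4e-05) were lower too.

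Higher at day 27 were Ano3 (0.68, adjusted p = 0.029), Cftr (0.73, adjusted p = 0.045), Clca2 (1.46, adjusted p = 0.010), the laminin chains Lama4 (0.52, adjusted p = 0.011) and Lamb1 (0.51, adjusted p = 0.030), and Etv5 (0.55, adjusted p = 0.040), a transcription factor that follows ERK. Adipocyte markers summed to 1782 and 1970 at day 18 and to at most 1.52 at day 27, skeletal muscle markers to 26.1 and 1307 against at most 16.8, and leukocyte markers to 535 and 814 against 234 to 454. Their part in these 17 differences was not tested.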

How the results depend on the processing

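In every alternative run the log2 change of each of the 5 genes against the controls stayed negative at days 3, 6, 18 and 27. For days 3 and 6 this describes the choice of the genes, and single tumours overlapped the controls as given above. The number called lower at day 18, 3 as reported, was 1 with the compared groups fitted alone, 2 to 5 with 1 tumour left out (5 without tumour 1 of the day 6 controls), and 5 without that tumour and tumour 2 of day 18, a pair chosen after seeing the data. At day 27, 4 as reported, it was 2 against the day 3 controls alone, 2 against the day 6 controls alone, 1 in each of the 3 pairings of day 27 tumours, and 2 to 5 with 1 tumour left out (2 without tumour 2 of the day 3 controls). With no tumour left out, the highest counts were 4 at day 18 and 5 at day 27. Nrn1 was called higher at day 27 than at day 18, 1 gene in place of 0, with sample weights (adjusted p = 0.033) and with the compared groups alone (adjusted p = 0.023). Without tumour 1 of day 18 the difference between the late days turned to -0.54 for Ano1 and -0.45 for Glp1r, and without tumour 2 it was 1.47 and 1.06 (the highest of these fits). Control day 6 against control day 3 turned to 0.28 for Ano1, 0.41 for Glp1r, 0.37 for Nrn1 and 0.083 for Ptgfr without tumour 1 of the day 6 controls, with or without tumour 2 of day 18, and to 0.17 for Glp1r and 0.04 for Ptgfr without tumour 2 of the day 3 controls. The lowest values of these 4, without tumour 2 of the day 6 controls, were -1.55, -2.45, -1.63 and -1.19. Which feature of these tumours moved the values was not tested.

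The number of genes called ran from 3919 to 8075 at day 3 (7249 as reported), 0 to 2467 at day 6 (937), 178 to 2220 at day 18 (1254), 170 to 1143 at day 27 (1056), 479 to 3209 between the late days (1592) and 0 to 31 between the controls (0). Quantile normalisation moved the median of all genes at day 3 from 0.02 to -0.15. It lowered the share of calls that are higher from 54.4% to 38.9% at day 3, from 75.9% to 60.4% at day 6 and from 68.4% to 44.9% at day 18, and raised it from 31.7% to 59.1% between the late days. Under it and under median-of-ratios rescaling no called gene of the 7 lists changed sign. Groups of 2 left with 1 tumour are assumed to vary like the others. No paired analysis was possible because the columns carry no animal, so tumour numbers pair nothing across groups. The depth is unknown, so the precision of low signals cannot be given.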
